A study of Mus musculus with 2 samples.

Results

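Cell_culture is a single-cell RNA sequencing dataset of mouse dorsal root ganglia (DRGs), and the genes described here are 9 genes of transforming growth factor beta (TGF-beta) signalling out of the 31053 genes counted in it. They comprise the ligand genes Tgfb1, Tgfb2 and Tgfb3, the receptor genes Tgfbr1, Tgfbr2 and Tgfbr3, and 3 genes that the pathway induces, Tgfbi, Pmepa1 and Smad7. The genes were taken by their symbols from both count matrices, and they were picked as a group with expression results of these same cells in view. Their levels are therefore given as a description, with the spread over libraries and no test. Tests are given only for 80 other genes of the pathway.

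TGF-beta is secreted as a latent complex with its own propeptide and is set free in the matrix, for example by integrins. The active ligand binds the receptor kinase encoded by Tgfbr2, which recruits and activates the kinase encoded by Tgfbr1, and Smad2 and Smad3 then carry the signal to the nucleus together with Smad4. In peripheral nerve, TGF-beta is known as a regulator of Schwann cell proliferation and of matrix deposition by fibroblasts, and macrophages are a known source of the ligand.

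The cells came from the DRGs of 2-week-old SWISS mice (strain label Swiss), which the study's methods describe as uninjured males and females. Ganglia of the neck, chest and lumbar levels were dissociated with collagenase and dispase, and their cells were grown in culture for 3 days and detached with trypsin. There is a single condition with no treatment, so the groups compared are cell classes within the culture, and the replicates are 2 libraries, A and B, run on the same 10X chip. Whether A and B stem from separate mice or cultures is not given in the labels or methods, so the spread between them may be technical.

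The 5175 barcodes of library A held 40355401 UMIs and the 5773 of library B held 38945848, a UMI being a molecular tag that lets each captured transcript count a single time. After removal of barcodes with under 200 genes or over 10% of UMIs from mitochondrial genes, 10730 of 10948 were kept, and 8 barcode sequences occurred in both libraries. By marker genes these were 9442 glial cells, 810 neurons, 396 fibroblasts and 82 macrophages, with median depths of 4723, 28338, 11474.5 and 8935 UMIs. Of the 34 marker genes of the 4 classes, 33 were highest in their own class and 1, the fibroblast marker Clec3b, was not (0.234 CPM in fibroblasts and 0.806 CPM in neurons, CPM being UMIs of the gene per 1000000 UMIs of the group). The summed level of 8 macrophage genes (Lyz2, C1qa and others) was between 26826 and 30211 CPM in macrophages and 6.89 and 8.48 CPM in the libraries of glia, where Csf1r was at 0. The glial genes Sox10, Fabp7, Erbb3, Cdh19 and Gpm6b were each at 7.04% to 13.4% of their glial level in neurons, 3.02% to 13.4% in fibroblasts and 17.5% to 23.1% in macrophages. The glial marker S100b set neurons and glia apart little (87.9 and 92.0 CPM) and was at 27.3% of its glial level in fibroblasts and 17.7% in macrophages. The part of free RNA or of doublets in the values below was not tested. Markers of endothelial cells (8 genes, Cldn5 at 0) summed to 16.3 CPM in each library of glia and those of pericytes and smooth muscle (8 genes, Rgs5, Kcnj8 and Abcc9 at 0) to 167 and 168 CPM. In fibroblasts the same lists summed to 91.6 and 93.6 CPM and to 115 and 117 CPM with no gene at 0, and Cdh5 (51.7 CPM), Emcn (13.1), Cldn5 (4.02), Rgs5 (10.2), Notch3 (12.4), Kcnj8 (6.39) and Abcc9 (4.80) were higher there than in any other class. The part of such cells in the fibroblast values was not tested.

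Glial cells were clustered again on their own, without the 9 genes or the 80 other pathway genes among the variable genes, and fell into 5 clusters. Clusters 0, 2 and 3 were high in genes of satellite glial cells (SGCs), the glia that wrap neuronal cell bodies. The 10 genes of this list (Apoe, Fabp7, Kcnj10 and others) summed there to 12311, 7959 and 7957 CPM, against 2754 CPM in cluster 1 and 2171 CPM in cluster 4. Apoe alone made up 9693 CPM of the sum in cluster 0. Each of 8 genes of the list was higher in all 3 clusters than in clusters 1 and 4, whereas Cadm1 was lower (189 to 235 CPM, against 299.8 and 240 CPM) and Ednrb was higher in clusters 1 and 4 (308 and 307 CPM) than in clusters 0 and 2 (234 and 223 CPM). The 10 mitosis genes (Top2a, Mki67 and others) summed to 5441, 7138 and 5954 CPM in clusters 2, 3 and 4, against 160.1 CPM in cluster 0 and 299 CPM in cluster 1. The 10 genes of DNA replication (Mcm2, Pcna and others) were highest in clusters 2 and 4, with 1158 and 1101 CPM. The summed level of 9 genes of repair Schwann cells (Ngfr, Atf3, Runx2 and others) was highest in cluster 1, with 1894 CPM. The same sum reached 1483 CPM in cluster 0. Jun alone made up 1023 CPM of the sum in cluster 1 and was higher in cluster 0 (1151 CPM). Sox2 was higher in clusters 2 and 4 (267 and 250 CPM) than in cluster 1 (246 CPM). Olig1 was higher in cluster 4 than in cluster 1, and the other genes of this list were each highest in cluster 1. Cluster 0 held 3704 cells, cluster 1 held 2141, cluster 2 held 1574, cluster 3 held 1045 and cluster 4 held 978.

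The promoters of Tgfbi and Tgfb2 are shown because glia low in SGC genes were set apart by Tgfbi, and the dividing ones among them had the least Tgfb2. The core of the Smad-binding element is CAGAC, or GTCTG read on the other strand, and both strands were searched. The windows are the part of each RefSeq promoter window (GRCm38.p6) that lies before the gene start annotated by GENCODE. They are chr13:56609336-56609522 on the plus strand for Tgfbi and chr1:186705990-186706239 on the minus strand for Tgfb2. They are written 5′ to 3′ on the gene's strand, with the matches in capitals, and 5 of the 9 genes had a promoter in the RefSeq table used here.
Tgfbi: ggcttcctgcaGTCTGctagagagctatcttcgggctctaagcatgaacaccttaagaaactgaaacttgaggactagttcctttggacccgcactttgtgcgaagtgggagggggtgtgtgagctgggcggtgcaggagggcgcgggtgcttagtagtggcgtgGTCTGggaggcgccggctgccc
Tgfb2: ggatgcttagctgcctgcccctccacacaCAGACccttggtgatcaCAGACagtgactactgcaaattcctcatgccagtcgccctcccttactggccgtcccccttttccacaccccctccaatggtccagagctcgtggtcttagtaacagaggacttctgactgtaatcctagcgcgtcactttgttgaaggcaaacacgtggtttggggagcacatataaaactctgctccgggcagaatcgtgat
Each window held 2 matches, those of Tgfbi as GTCTG in 187 bases and those of Tgfb2 as CAGAC in 250 bases. Such short motifs are common: of 32851 mouse promoter windows, 34.2% held at least 1 match on either strand in their first 187 bases and 42.2% in their first 250 bases. These windows were not cut at a GENCODE gene start. A match describes the letters only, not a bound factor.

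Tgfb1 was found in every class in both libraries, and fibroblasts and macrophages held the most of it. Tgfb1 (chromosome 7, 25687002 to 25705077, plus strand, GRCm38) encodes the ligand best known from immune cells and wound healing. Its level was 199.6 and 181.9 CPM (libraries A and B) in fibroblasts, 138 and 179 CPM in macrophages, 39.3 and 38.5 CPM in glia and 25.9 and 27.1 CPM in neurons. In both libraries fibroblasts and macrophages lay above glia, and glia above neurons, with no overlap. Fibroblasts exceeded glia by a factor of 4.90 (5.07 in A and 4.73 in B), and macrophages exceeded glia by a factor of 4.07 (3.50 in A and 4.66 in B). Fibroblasts and macrophages were close, with exact 95% Poisson intervals that overlapped (178 to 203 and 134 to 188 CPM, both libraries summed). These intervals, like all those given here, cover counting error only.

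Because the median neuron was sequenced far deeper than the median glial cell, shares of cells with a UMI were compared after drawing 2000 UMIs from each cell. Tgfb1 was then found in 26.6% and 22.7% of fibroblasts (A and B), 21.6% and 33.3% of macrophages, 6.80% and 6.94% of glia and 6.04% and 7.06% of neurons. Without thinning, 62.2% of fibroblasts, 77.6% of macrophages, 17.9% of glia and 33.9% of neurons held a UMI. The thinned shares of glia and neurons overlapped between libraries, whereas their CPM did not. Among fibroblasts, 41 of 396 cells held 50% of the 870 Tgfb1 UMIs.

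Within glia, Tgfb1 was highest in cluster 4 (50.8 and 54.7 CPM) and cluster 2 (46.4 and 48.8 CPM), both of which were high in genes of DNA replication. Cluster 1 held 40.1 and 39.4 CPM. Cluster 3, with the most mitosis RNA, held 30.9 and 29.5 CPM, and cluster 0 held 32.3 and 27.5 CPM. The libraries of the last pair overlapped. Poisson intervals overlapped between clusters 4 and 2 and between clusters 2 and 1, but cluster 4 lay apart from cluster 1 and cluster 1 from clusters 3 and 0. From cluster 0 to cluster 4 the factor was 1.76 (1.58 in A and 1.99 in B). This was small beside the gap to fibroblasts, which held 3.62 times the level of cluster 4.

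Tgfb2 was led by fibroblasts and, within glia, was lowest in the dividing cluster low in SGC genes. Tgfb2 (chromosome 1, 186622792 to 186705989, minus strand) encodes a ligand that depends on a co-receptor for efficient binding. Fibroblasts held 28.0 and 31.2 CPM, glia 8.98 and 9.28 CPM and neurons 2.67 and 1.64 CPM, which in neurons are 31 and 15 UMIs. Fibroblasts lay above glia by a factor of 3.25, and glia above neurons by a factor of 4.23, without overlap between libraries. In macrophages only 2 UMIs were seen, both in library A. Library B held none, which by a limit of 3 UMIs allows up to 6.72 CPM, and the summed Poisson interval of macrophages (0.279 to 8.33 CPM) covered neurons and touched that of glia (8.33 to 9.99 CPM).

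Among glial clusters, Tgfb2 was 11.6 and 14.0 CPM in cluster 0, 12.4 and 9.24 CPM in cluster 3, 8.85 and 7.73 CPM in cluster 2, 7.08 and 8.09 CPM in cluster 1 and 1.52 and 2.39 CPM in cluster 4. Cluster 4 stood apart with 14 UMIs in 978 cells, each in a different cell. Its summed Poisson interval, 1.09 to 3.33 CPM, did not reach those of the other clusters, of which the nearest was cluster 1 at 5.91 to 9.68 CPM. Cluster 1 exceeded cluster 4 by a factor of 3.88 (4.65 in A and 3.39 in B). The other neighbours in this order had overlapping intervals. After thinning to 2000 UMIs, 1 of 974 cells of cluster 4 and 18 of 2030 cells of cluster 1 held a Tgfb2 UMI.

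Tgfb3 was the ligand gene with the fewest UMIs, and fibroblasts held more of it than glia and neurons. Tgfb3 (chromosome 12, 86056745 to 86079041, minus strand) encodes the ligand known from palate and wound repair. Fibroblasts held 9.82 and 6.16 CPM, glia 4.25 and 4.18 CPM and neurons 4.73 and 3.62 CPM, while macrophages held 4 UMIs in A and none in B. Fibroblasts lay above glia and neurons in both libraries, and their Poisson interval (5.51 to 10.9 CPM) did not reach those of glia (3.68 to 4.82 CPM) and neurons (3.403 to 5.23 CPM). Glia and neurons overlapped, and the interval of macrophages (1.26 to 11.8 CPM) covered those of all other classes. Within glia only cluster 3 stood out, with 8.19 and 7.45 CPM (27 and 25 UMIs) against 3.99 and 4.63 CPM in the next cluster, cluster 0, a factor of 1.82. The exons of Tgfb2 and Tgfb3 overlap annotated genes on the opposite strand, which the kit's stranded reads keep apart.

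**Figure D1:**
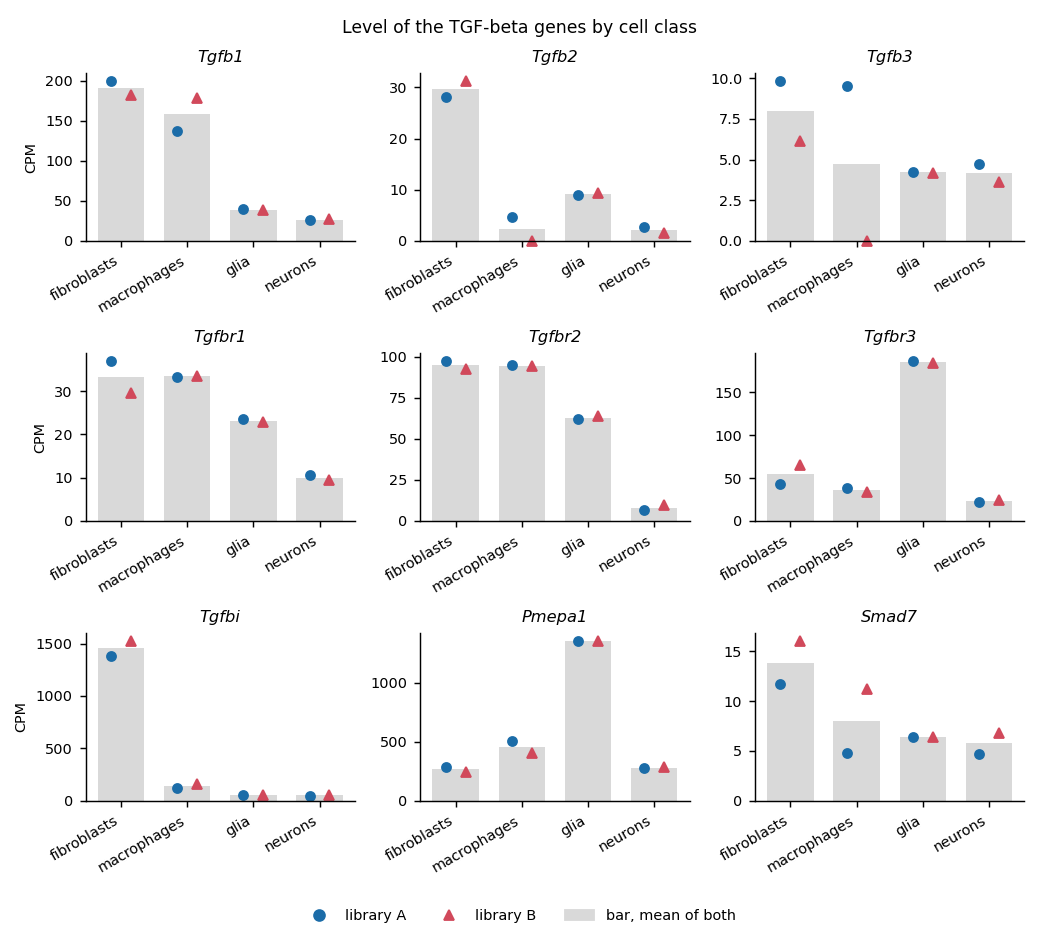
Level of the 9 genes in CPM (vertical axes, linear, each with its own scale) in fibroblasts, macrophages, glia and neurons, with a circle for library A, a triangle for library B and a bar for their mean. Tgfbi and Tgfb2 are highest in fibroblasts, Tgfbr3 and Pmepa1 in glia, and Tgfbr2 is lowest in neurons, while the macrophage values of Tgfb2 and Tgfb3 include a library with no UMI.

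The genes of both signalling receptors were lowest in neurons. Tgfbr2 (chromosome 9, 116084293 to 116175360, minus strand), which encodes the ligand-binding kinase, was 97.2 and 92.4 CPM in fibroblasts, 95.1 and 94.1 CPM in macrophages, 61.9 and 63.9 CPM in glia and 6.63 and 9.42 CPM in neurons. Fibroblasts and macrophages overlapped, glia lay below both, and neurons lay below glia by a factor of 7.84 (9.34 in A and 6.78 in B). After thinning, a Tgfbr2 UMI was found in 1.21% and 1.98% of neurons and in 10.97% and 12.7% of glia, so the gap was also there at equal depth. The neuronal level was 12.8% of that of glia, the glial genes Sox10 and Erbb3 were at 13.4% and 10.1% there, and how much of the neuronal signal is free glial RNA was not tested.

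Tgfbr1 (chromosome 4, 47353222 to 47414931, plus strand) encodes the kinase that phosphorylates Smad2 and Smad3. Macrophages held 33.3 and 33.6 CPM of it, fibroblasts 36.9 and 29.6 CPM, glia 23.5 and 22.8 CPM and neurons 10.5 and 9.53 CPM. Macrophages and fibroblasts were not separated, and the macrophage values rest on 14 and 15 UMIs. Neurons lay below glia by a factor of 2.31 (2.23 in A and 2.39 in B), a smaller gap than that of Tgfbr2.

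Both signalling receptors varied little across glial clusters. Tgfbr2 ran from 53.2 ± 3.32 CPM (SD, n = 2 libraries) in cluster 2 to 71.1 ± 3.15 CPM in cluster 0, and Tgfbr1 from 17.9 ± 3.39 CPM in cluster 3 to 29.3 ± 0.962 CPM in cluster 4. For Tgfbr2, every pair of neighbours in the order had overlapping Poisson intervals. The same held for Tgfbr1, although the ends of each order were apart. In thinned glia, Tgfbr2 was found in 12.0% and 11.01% of the cells with a Tgfbr1 UMI (A and B) and in 10.9% and 12.8% of the cells without, which went opposite ways in the libraries, at a depth where Tgfbr1 itself was found in 4.40% and 4.45% of cells.

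Tgfbr3, in contrast, was a glial gene in this culture. Tgfbr3 (chromosome 5, 107106570 to 107289629, minus strand) encodes betaglycan, a co-receptor that presents ligand, above all TGF-beta2, to the kinases. Its level was 186 and 184 CPM in glia, 43.5 and 65.3 CPM in fibroblasts, 38.0 and 33.6 CPM in macrophages and 22.0 and 24.0 CPM in neurons. Glia exceeded fibroblasts by a factor of 3.41 (4.29 in A and 2.82 in B), and the intervals of fibroblasts and macrophages overlapped. After thinning, 30.9% and 30.4% of glia held a UMI, against 7.25% and 6.21% of neurons, 4.62% and 13.9% of fibroblasts and 2 of 82 macrophages. Neurons were thus lowest by CPM but not by thinned shares, and the log2 difference of neurons from the mean of the other classes moved from -1.59 to 0.0028 after thinning. Its levels in neurons, fibroblasts and macrophages were 12.4%, 29.3% and 19.3% of that in glia, and the part of free glial RNA in them was not tested. An exon of Tgfbr3 overlaps the annotated gene Gm43422 on the same strand, so reads of the pair may not be told apart there.

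Across glial clusters the mean level of Tgfbr3 was higher in clusters 0, 2 and 3, high in SGC genes, than in clusters 1 and 4. This grouping was made after the values were seen. The gap between clusters 2 and 1 was narrow, with overlapping Poisson intervals. Cluster 0 held 225 and 229 CPM, cluster 3 held 190 and 190 CPM, cluster 2 held 180 and 169 CPM, cluster 1 held 167 and 161 CPM and cluster 4 held 121 and 131 CPM. Cluster 0 at the top and cluster 4 at the bottom had intervals apart from their neighbours (220 to 234 and 118 to 135 CPM). The 3 clusters between them overlapped in sequence. From cluster 4 to cluster 0 the factor was 1.80. Tgfbr3 was also spread over many cells: 1575 glial cells held 50% of its 9579 UMIs, and the richest cell held 10.

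Pmepa1 was the gene of the set with the most UMIs, and it too was glial. Pmepa1 (chromosome 2, 173224458 to 173276533, minus strand) encodes a membrane protein that is induced by TGF-beta and holds back Smad2 and Smad3. Glia held 1353 and 1350 CPM, macrophages 504 and 408 CPM, neurons 275 and 282 CPM and fibroblasts 288 and 245 CPM. Glia exceeded macrophages by a factor of 2.96 (2.69 in A and 3.31 in B), macrophages exceeded neurons by a factor of 1.64, and neurons and fibroblasts overlapped. Fibroblasts, which held the most Tgfb1 and Tgfb2, were thus lowest in Pmepa1 together with neurons. The levels in neurons, fibroblasts and macrophages were 20.6%, 19.7% and 33.7% of that in glia. Thinned shares gave 84.5% and 84.8% of glia, 43.2% and 33.3% of macrophages, 37.9% and 45.2% of neurons and 28.3% and 25.9% of fibroblasts. In fibroblasts the UMIs were uneven, with 40 of 396 cells holding 50% of them, whereas in glia 2108 of 9442 cells did.

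Within glia Pmepa1 was higher in the clusters high in SGC genes than in those low in them. The SGC genes do not set an order between clusters 2 and 3, where they summed to 7959 and 7957 CPM. Cluster 0 held 1888 and 1886 CPM, cluster 2 held 1373 and 1409 CPM, cluster 3 held 1341 and 1314 CPM, cluster 1 held 835 and 889 CPM and cluster 4 held 625 and 634 CPM. Neither the libraries nor the Poisson intervals of any neighbouring clusters overlapped. The 3 clusters high in SGC genes, whether dividing or not, all lay above both clusters low in SGC genes, a grouping made after the values were seen. Cluster 0 exceeded cluster 1 by a factor of 2.19 and cluster 4 by a factor of 3.00. The share of thinned cells with a UMI went the same way, from 94.3% and 93.8% in cluster 0 to 61.8% and 65.3% in cluster 4.

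**Figure D2:**
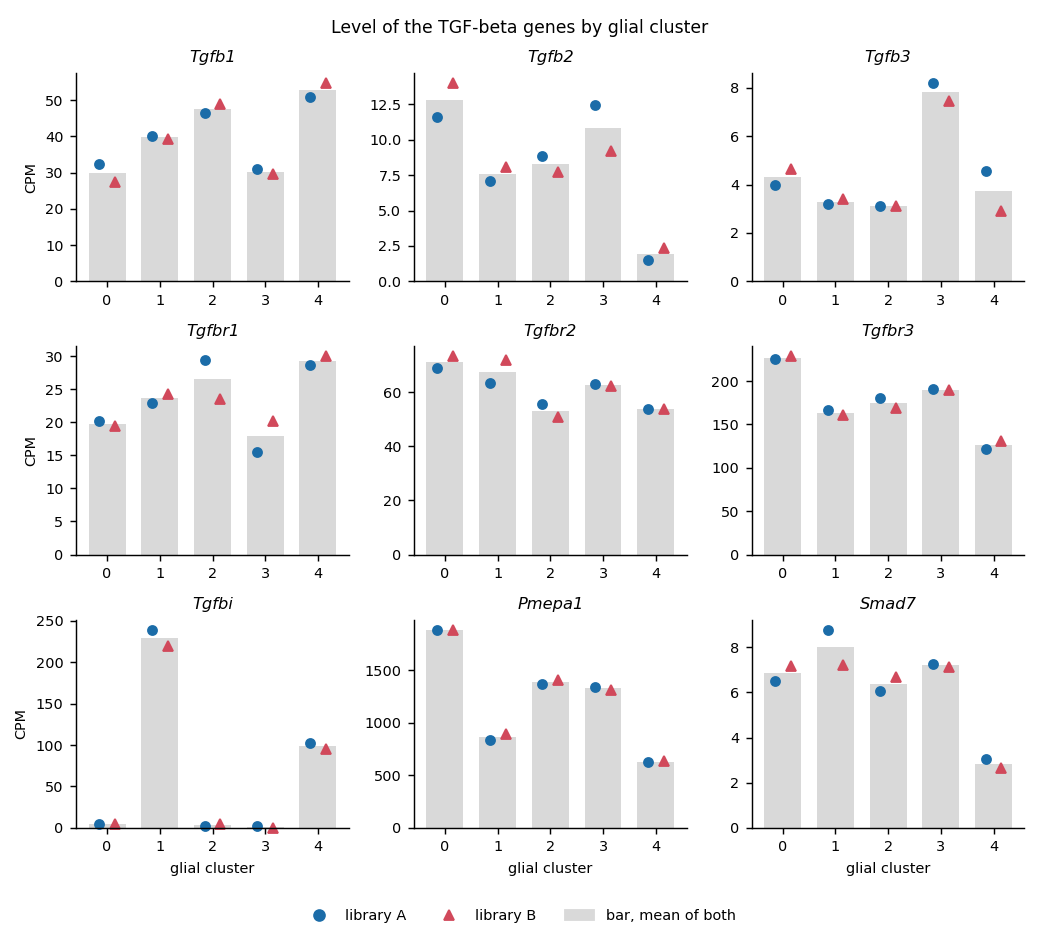
Level of the 9 genes in CPM (vertical axes, linear, each with its own scale) in glial clusters 0 to 4, with a circle for library A, a triangle for library B and a bar for their mean. Pmepa1 and Tgfbr3 are highest in cluster 0 and lowest in cluster 4, while Tgfbi is found in clusters 1 and 4 and is near 0 in clusters 0, 2 and 3.

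Tgfbi showed the widest range of the 9 genes, from fibroblasts down to glia with almost none. Tgfbi (chromosome 13, 56609523 to 56639562, plus strand, directly after the promoter printed above) encodes an extracellular matrix protein that binds collagens and integrins and was found as a gene induced by TGF-beta. Fibroblasts held 1385 and 1524 CPM, macrophages 121 and 159 CPM, glia 54.2 and 55.2 CPM and neurons 47.3 and 57.8 CPM. Fibroblasts exceeded macrophages by a factor of 10.4 (11.4 in A and 9.58 in B), and glia and neurons overlapped.

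The mean of all glia hid a split between clusters. Cluster 1 held 240 and 220 CPM and cluster 4 held 103 and 95.5 CPM, while cluster 0 held 4.83 and 4.05 CPM, cluster 2 held 1.55 and 4.12 CPM, and cluster 3 held 2.12 CPM in A (7 UMIs in 4 cells) and no UMI in B. Cluster 1 exceeded cluster 4 by a factor of 2.32 (2.33 in A and 2.30 in B), and cluster 4 exceeded cluster 0 by a factor of 22.3 (21.3 in A and 23.6 in B). Tgfbi was the first of the leading genes of cluster 1, ranked by the fold over the mean of the other clusters after adding 10 CPM to both (6.50), ahead of Igfbp5, Atf3, Ucn2 and Hmga2. Tgfbi had been kept out of the genes that drew the clusters, but genes that vary with the clustering genes are still favoured. It was also picked with results of these cells in view, so its rank is only a description.

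The same split appeared in shares of cells. After thinning, 23.3% and 22.7% of cluster 1 and 16.6% and 13.7% of cluster 4 held a Tgfbi UMI, against 0.463% and 0.415% of cluster 0, 0.381% and 0.511% of cluster 2 and 0 of 1031 cells of cluster 3, which allows a share of up to 0.291% at that depth. Without thinning, 4 of 1045 cells of cluster 3 held a UMI. The cells of cluster 1 differed among themselves: 126 of 2141 cells held 50% of its 2014 UMIs, 263 cells held 3 UMIs or more and the richest held 21.

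Markers of fibroblasts, the class richest in Tgfbi, were examined in these glia. The 8 fibroblast genes fixed for this purpose summed to 1359 and 1493 CPM in cluster 1 and to 1223 and 1309 CPM in cluster 4, against 136 to 204 CPM in the other clusters, with Dpt at 0 in cluster 1 and Pdgfra, Dpt and Clec3b at 0 in cluster 4. Nearly all of this was Apod, an apolipoprotein gene, with 1406 CPM in cluster 1 and 1239 CPM in cluster 4 against 12785 CPM in fibroblasts. The defining genes Dcn, Lum, Mgp, Pdgfra and Dpt (a subset chosen after the values were seen) summed to 13.1 and 14.4 CPM in the cluster 1 cells with a Tgfbi UMI and to 8.69 and 8.70 CPM in those without, against 19231 and 17632 CPM in fibroblasts with a Tgfbi UMI. Of the listed genes outside this subset, Clec3b was at only 0.234 CPM in fibroblasts themselves, and Fbln1 told the groups apart little, with 9.31 CPM in cluster 1 and 17.9 CPM in cluster 4 against 21.0 CPM in fibroblasts. In cluster 4 the fibroblast subset was lower in cells with a Tgfbi UMI (4.53 and 6.58 CPM) than in those without (8.26 and 13.3 CPM).

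The Tgfbi signal of macrophages was uneven over cells, like that of glia (where 200 of 9442 cells held 50% of the UMIs). A UMI was found in 38 of 82 macrophages, and after thinning in 16.2% and 17.8% of them (A and B). Of the 122 macrophage UMIs, 36 lay in 1 cell of library B, and 4 of 82 cells held 50%. That cell also held 45 UMIs of the 5 fibroblast genes, and without it the level in library B was 80.9 CPM instead of 159.1 CPM. In library A, which does not hold that cell, it was 121.2 CPM. The 5 genes summed to 215 CPM in the macrophages of library B with a Tgfbi UMI and to 12.9 CPM in those without, but in library A to 28.0 CPM with and 1367 CPM without. In neurons 312 of 810 cells held a UMI, 60 of them held 50% of the 1076 UMIs, and the thinned share was 8.21% and 7.63%, well above clusters 0, 2 and 3. The 5 fibroblast genes summed to 18.8 and 122.6 CPM in neurons with a Tgfbi UMI and to 37.2 and 69.9 CPM in those without, so they did not go one way in both libraries.

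Glia with Tgfbi RNA held Pmepa1 RNA less often than glia without it. After thinning, 62.3% and 66.0% of the cells with a Tgfbi UMI also held a Pmepa1 UMI, against 86.1% and 86.2% of the cells without Tgfbi. The gap was smaller within clusters. Within cluster 1 the shares were 62.6% and 67.1% against 73.8% and 78.0%, and within cluster 4 they were 55.6% and 59.5% against 63.1% and 66.2%, lower with Tgfbi in both libraries of both clusters. Fibroblasts showed a wider gap, with Pmepa1 in 17.2% and 18.8% of the cells with Tgfbi and in 50.9% and 49.0% of those without. In neurons the shares were 47.1% and 44.4% with Tgfbi and 37.1% and 45.3% without, and in macrophages 0 of 6 and 5 of 8 cells with Tgfbi held Pmepa1, so neither went one way in both libraries. All 8 cells with Tgfbi in each library of cluster 0 held Pmepa1. Tgfbr3 was also found less often with Tgfbi within cluster 1, with 22.4% and 21.8% of cells with Tgfbi and 30.5% and 28.9% of cells without, but more often in fibroblasts, with 5.17% and 15.2% against 3.51% and 9.80%. These shares are given without a test, since cells of a library are not replicates.

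**Figure D3:**
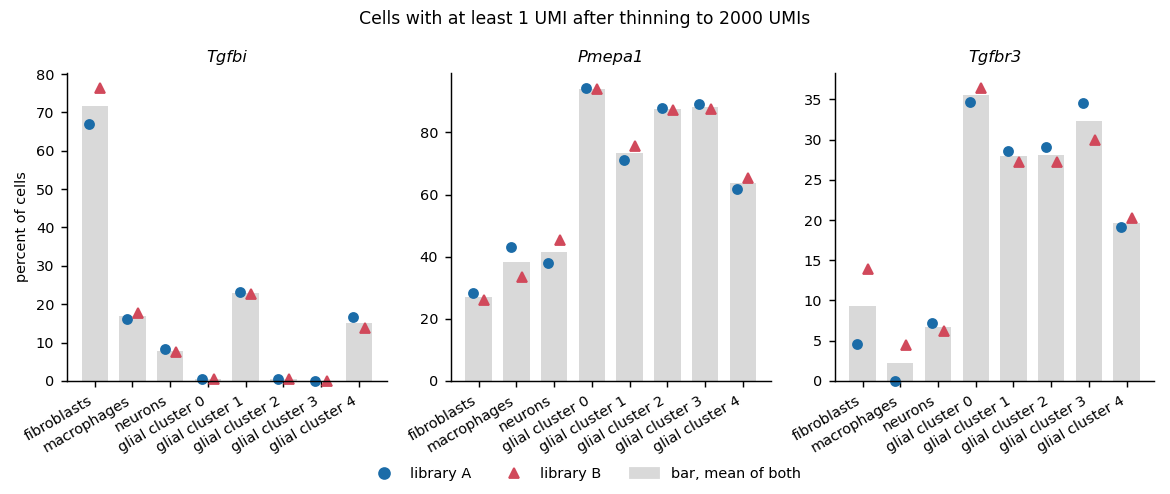
Percent of cells with at least 1 UMI of Tgfbi, Pmepa1 and Tgfbr3 (vertical axes, linear) after each cell was thinned to 2000 UMIs, in fibroblasts, macrophages, neurons and glial clusters 0 to 4, with a circle for library A, a triangle for library B and a bar for their mean. Tgfbi is found in clusters 1 and 4 but in at most 0.511% of cells of clusters 0, 2 and 3 in either library, whereas Pmepa1 is found in most cells of all 5 clusters.

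Smad7 RNA was scarce in every class. Its product, an inhibitory Smad, is induced by TGF-beta and targets the active receptor for degradation. Fibroblasts held 11.7 and 16.0 CPM (25 and 39 UMIs), macrophages 4.75 and 11.2 CPM (2 and 5 UMIs), glia 6.42 and 6.43 CPM and neurons 4.73 and 6.79 CPM. Fibroblasts lay above glia in both libraries, and macrophages, glia and neurons overlapped. Among glial clusters the level lay between 6.38 and 8.01 CPM in clusters 0 to 3, in overlapping order, and at 3.04 and 2.65 CPM (10 UMIs each) in cluster 4. Cluster 4 was thus the lowest for Tgfb2, Tgfbr3, Pmepa1 and Smad7 but the highest for Tgfb1 and among the highest for Tgfbr1 and Tgfbi.

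For each gene, the genes with the most similar pattern were sought among the 5632 other genes that reached 50 CPM in at least 1 group, by Pearson's r of log2(CPM + 10) over 16 points (fibroblasts, macrophages, neurons and 5 glial clusters in 2 libraries). The points share libraries and include classes of very different RNA composition, so r is a description. The best matches of Pmepa1 were Col28a1 (0.99), Gpr37l1 (0.99) and Kcnj10 (0.98), the last of which encodes a potassium channel of SGCs and is on the SGC list above. Tgfbr3 was closest to Rhbdf1, Entpd2 and Ctnna1 (0.99 each), of which Entpd2, an ATP-degrading enzyme of the cell surface, is on that list as well. For Tgfbi the closest were Anxa1 (0.96), Rps2 (0.95) and Rpl31 (0.94). Tgfb1 was closest to Fam20c (0.98), Ssr4 (0.97) and Slc16a3 (0.97), Tgfb2 to Ramp2 (0.96), Sdc2 (0.95) and Cthrc1 (0.95), Tgfbr1 to Abracl (0.94), Tspan4 (0.91) and Myo1c (0.91), and Tgfbr2 to Scamp2 (0.99), Spcs2 (0.98) and Rrbp1 (0.98). The scarce genes had weaker matches, 0.76 for Tgfb3 with Ccdc12 and 0.82 for Smad7 with Zfpl1.

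The 80 other pathway genes were then tested, to set the 9 genes beside the rest of the pathway. UMIs were summed per library and class, and each class was compared with the mean of the other classes on the log scale by edgeR's quasi-likelihood test with the library as a block, and a gene was called where its p, after Benjamini-Hochberg adjustment across 11888 genes, was under 0.05. Of the 80 genes, 75 passed the filter on low counts. The classes were drawn from the same cells, and although these genes were kept out of the clustering, genes that vary with the clustering genes are still favoured. The counts of the whole list in each group therefore stand beside the shares of all tested genes called higher and lower.

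Fibroblasts had the most pathway genes called higher. Of the 75 genes, 43 were higher in fibroblasts and 7 lower, against 23.5% and 15.9% of all genes tested, and the median log2 fold of the list was 1.10 against 0.01 over all genes. Other target genes of the pathway made up most of the calls, with 24 of 28 higher and 2 lower. Tagln, an actin-binding protein of smooth muscle and myofibroblasts, was at 110.3 and 86.6 CPM in fibroblasts, the class that also held the pericyte markers given above. In glia, the next class, it was at 12.2 and 10.3 CPM. Its log2 fold was 7.73 (adjusted p = 3.25e-19, edgeR) against the log-scale mean of the other classes. Macrophages, with no Tagln UMI, pull that mean down, and the gap to glia alone was smaller. Ctgf, a matricellular target gene, was at 46.3 and 25.9 CPM, and the mean of no other class reached 1 CPM. Lrrc32, which encodes GARP, the cell surface anchor of latent TGF-beta, was at 64.5 and 56.7 CPM in fibroblasts and had no UMI in glia. Gdf10, a ligand of the same superfamily, was at 28.5 and 30.4 CPM in fibroblasts and had no UMI in any other class. Latency and activation genes were higher for 7 of 11 and lower for 1. The genes lower in fibroblasts included Id2 (7.01 and 10.3 CPM, log2 fold -3.09, adjusted p = 5.04e-14, edgeR), Fst (10.8 and 15.2 CPM, -2.57), Postn (65.9 and 55.0 CPM, -1.93) and the integrin gene Itgb8 (43.9 and 56.7 CPM, -1.44).

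In glia the pathway list went both ways. Of the 75 genes, 29 were higher and 23 lower, against 30.9% and 22.6% of all genes, with a median log2 fold of 0.06 against 0.07. Fst, which encodes follistatin, a binder of activins, was at 354 and 341 CPM (log2 fold 3.21, adjusted p = 3.42e-21, edgeR). Itgb8, part of an integrin that activates latent TGF-beta, was at 618 and 626 CPM (2.87). The matrix gene Postn, at 1101 and 1071 CPM (3.12), and Cyr61, a matricellular gene, at 142.7 and 149 CPM (2.47), were higher as well. Other genes of the list were almost absent from glia. Thbs1, which encodes an activator of latent TGF-beta, was at 0.315 and 0.228 CPM, Acta2 at 0.236 and 0.038 CPM, and the activin gene Inhba at 0.473 and 0.647 CPM, all called lower. The target list as a whole was split evenly, with 12 of 28 higher and 12 lower. Without the top 5% of doublet scores 14 of 74 genes were lower in glia, against 16.9% of all genes, and the median was 0.31 against 0.24. With cells thinned to 2000 UMIs 7 of 55 were lower, against 11.8%, and the median was 0.52 against 0.22. With no genes kept out of the clustering 20 of 75 were lower, against 15.1%, and the median was 0.29 against 0.28.

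Neurons, which held the least Tgfbr2, had more pathway genes lower than higher, though not in every list. Of the 75 genes, 39 were lower and 17 higher, against 29.5% and 37.0% of all genes, and the median log2 fold was -0.93 against 0.11. Target genes were lower for 19 of 28, latency and activation genes for 8 of 11 and intracellular inhibitors for 6 of 9. Other ligands and their binders had more genes higher (5 of 12) than lower (3). So did other receptors (4 of 9 higher and 2 lower) and signal-transducing Smads (3 of 6 higher and 1 lower). All genes tested also had more higher than lower (37.0% and 29.5%), so these short lists went the way of all genes. Col1a1, a chain of type I collagen, was at 16.4 and 21.5 CPM in neurons (log2 fold -4.15) and at 1099 and 1092 CPM in fibroblasts. Fn1 (fibronectin), Bmp7 and the transcription factor gene Snai1 were each under 2 CPM in neurons. The genes higher in neurons included Smad1, a transducer of BMP signals, at 135 and 131 CPM (2.78, adjusted p = 1.40e-18, edgeR), Tsc22d1, at 299 and 343 CPM (2.26), and the ubiquitin ligase gene Nedd4l, at 68.0 and 66.4 CPM (2.02). With each cell thinned to 2000 UMIs, which left 55 genes to test, 21 were lower and 7 higher, against 18.5% and 22.0% of all genes. Inhba was at 52.8 and 74.4 CPM in neurons (3.71), below fibroblasts at 206 and 157 CPM.

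Macrophages held few cells, and 12 of the 75 genes were higher there and 17 lower, against 11.1% and 7.96% of all genes (median -0.61 against -0.15). With DESeq2 the split was 13 higher and 11 lower, against 13.2% and 5.85%. Nrros, which anchors latent TGF-beta on macrophages and microglia, was at 49.9 and 73.9 CPM and under 1 CPM in all other classes. Id2 was at 264 and 267 CPM (log2 fold 3.50, adjusted p = 6.24e-16, edgeR) and Gdf15, a stress-induced ligand, at 59.4 and 56.0 CPM (3.93). Thbs1 was called higher at 21.4 and 31.4 CPM, above the log-scale mean of the others but below fibroblasts (86.5 and 88.7 CPM). Tagln had no UMI in macrophages, and Inhba, Id1 and Acvr2a were each under 3 CPM and called lower.

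**Figure D4:**
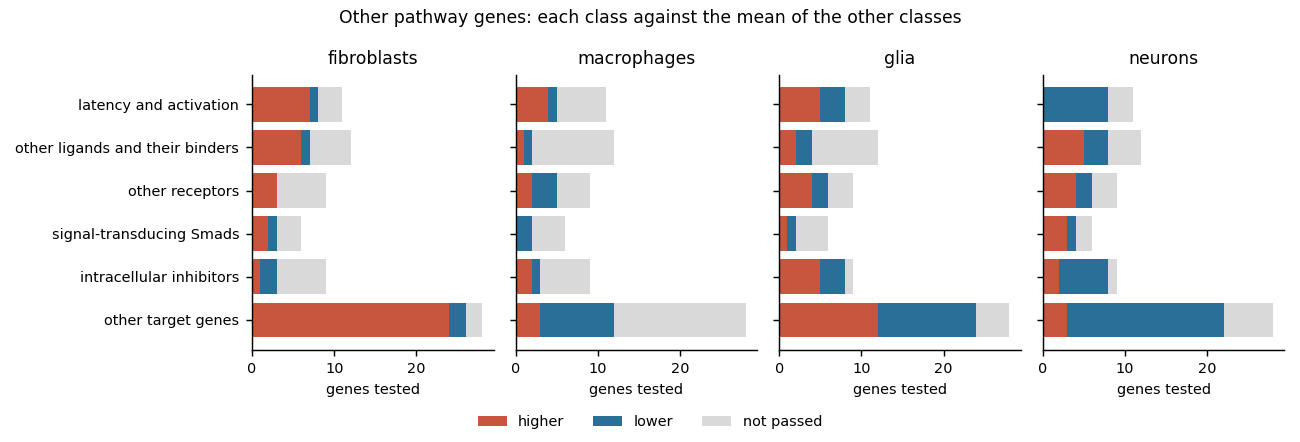
Number of genes tested (horizontal axis, linear from 0) in each of 6 pathway lists (vertical axis), split into those higher, lower or not passing the test, in fibroblasts, glia, neurons and macrophages, each against the mean of the other classes. In fibroblasts 24 of 28 other target genes were higher, and in neurons 19 of 28 were lower.

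Among glial clusters, 55 of the 80 genes passed the filter and were tested in the same way over 10096 genes, each cluster against the mean of the other glial clusters. Cluster 0 had the most genes called higher, with 30 higher and 8 lower, against 28.1% and 20.7% of all genes (median log2 fold 0.17 against 0.04). With the mitochondrial limit at 5%, which keeps 217 of the 3704 cells of cluster 0, 18 of 49 genes were higher and 2 lower, against 6.82% and 3.98% of all genes. Target genes made up 15 of the higher and 5 of the lower ones, out of 22 tested. Bgn, a matrix proteoglycan gene, was at 144 and 129.7 CPM (2.03), Fst at 529 and 519.6 CPM (1.45), the transcription factor gene Bhlhe40 at 22.0 and 23.8 CPM (1.03) and Cyr61 at 198 and 203 CPM (0.88). Id1, a target above all of BMP signals, was lower at 5.20 and 5.78 CPM (-1.91), and so were Col1a1 (167 and 167 CPM, -0.71), Smad1 and Nedd4l.

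Cluster 1, the cluster led by Tgfbi, had 21 genes higher and 14 lower, against 20.7% and 22.3% of all genes (median 0.11 against -0.01). Col1a1 was at 543 and 554 CPM there (log2 fold 1.47, adjusted p = 2.58e-61, edgeR), Furin, which encodes the protease that cleaves the TGF-beta precursor, at 69.4 and 69.4 CPM (1.09), and the inhibitor genes Smurf1 and Tgif1 at 44.2 and 40.2 CPM and 60.8 and 46.4 CPM. Bgn was lower at 6.84 and 13.4 CPM (-2.58), and so were the pseudoreceptor gene Bambi (12.0 and 9.79 CPM, -1.49), Fst (107 and 109 CPM, -1.36) and Id1 (9.04 and 7.66 CPM, -1.14). Fst and Bgn thus went with Pmepa1 in this cluster, and Col1a1 with Tgfbi.

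Cluster 4, the other cluster with Tgfbi, had 9 genes higher and 17 lower, against 19.5% and 17.1% of all genes, although the median log2 fold of the list was slightly positive (0.02 against -0.01). It had Col1a1 at 486 and 468 CPM (1.28), Id1 at 26.8 and 35.0 CPM (1.31), Cdkn1a at 166 and 179.6 CPM (0.46) and Timp1 at 298 and 323 CPM (0.44). The genes lower there included Bgn (7.61 and 10.1 CPM, -2.78), Fst (66.1 and 73.5 CPM, -2.08), Col4a1, a basement membrane collagen gene (365 and 369 CPM, -1.09), and the integrin gene Itgav (88.3 and 82.0 CPM, -0.71). Clusters 1 and 4 were thus alike in high Col1a1 and low Bgn and Fst but went opposite ways in Id1.

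The dividing clusters high in SGC genes were on the other side for Bgn, Fst and Col1a1. Id1 did not follow this split, since it was higher in cluster 2 as well as in the dividing cluster low in SGC genes. Cluster 2 had 17 genes higher and 17 lower, against 23.5% and 21.9% of all genes (10 and 15 with DESeq2, against 12.4% and 10.7%), among them Bgn at 108 and 107 CPM (1.62), Id1 at 33.2 and 36.4 CPM (1.43), Bambi at 48.9 and 46.7 CPM (1.16) and Fst at 409.7 and 399.8 CPM. Col1a1 (152 and 139.9 CPM, -0.94), Furin, Smurf1 and Tsc22d1 were lower there. Cluster 3 had 7 genes higher and 19 lower, against 17.5% and 16.2% of all genes, with Bgn at 106 and 120.4 CPM (1.71), Fst at 396 and 403 CPM (0.98), Col4a1 at 1012 and 1033 CPM (0.67) and Id3 at 121 and 119.5 CPM (0.42) higher. Col1a1 (126 and 143 CPM, -1.09), Klf10, Timp1 (162 and 171 CPM, -0.77) and Fstl3 were lower.

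**Figure D5:**
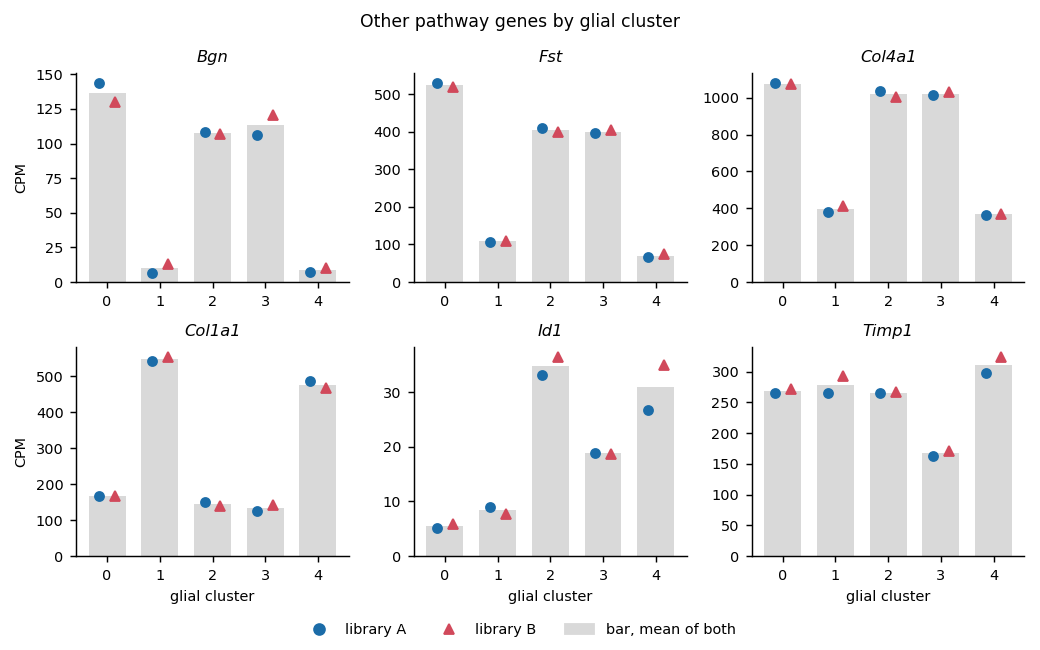
Level of Bgn, Fst, Col4a1, Col1a1, Id1 and Timp1 in CPM (vertical axes, linear, each with its own scale) in glial clusters 0 to 4, with a circle for library A, a triangle for library B and a bar for their mean. Bgn, Fst and Col4a1 are high in clusters 0, 2 and 3 and low in clusters 1 and 4, Col1a1 is high in clusters 1 and 4, and Id1 is high in clusters 2 and 4.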

How the data were processed

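Dissociated and cultured DRG cells were profiled by droplet single-cell RNA sequencing (10x Genomics 3′ v3 chemistry, which keeps strand). The authors processed the reads with Cell Ranger 3.0.2 and the mouse genome mm10 (the matrix header names software version 3.1.0) and deposited filtered UMI counts per gene and cell, not normalised, with 1 matrix for each library. Barcodes with under 200 genes or over 10% of UMIs from mitochondrial genes were removed. In Seurat 5.3.0 (R 4.3.3) the rest were clustered on 2000 variable genes, 20 components and a resolution of 0.18, all cells first and then glia alone, with the 9 genes and the 80 other pathway genes kept out of the variable genes. Clusters were named by marker lists. UMIs were summed per library and group and given as CPM, with exact 95% Poisson intervals that cover counting error only. Scrublet (scanpy 1.11.5) called 2 and 3 doublets among 5066 and 5664 cells of libraries A and B, too few for its calls to be used, so doublets were not removed and its scores served only for an alternative. Groups were compared in edgeR 4.0.16 by its quasi-likelihood test, with the library as a block, TMM scaling, the filterByExpr filter and Benjamini-Hochberg adjustment over all genes tested. The test was also run on simulated counts with preset groups. Such counts cannot show how it behaves for groups drawn by clustering the same cells. With 3 residual degrees of freedom for classes and 4 for glial clusters, p-values measure only the spread between these 2 libraries. The 9 genes and all lists were chosen with earlier results of these data known. Genes were named by rule: all 9 genes, and for each comparison up to 4 other pathway genes in each direction with the largest log2 fold among those that passed the test, had the same sign in A and B and were at 20 CPM or more in the higher group. Promoters came from RefSeq (GRCm38.p6), and the 2 printed windows end before the GENCODE gene start. Alternatives were DESeq2 1.42.0, no filter, no block, other limits on cells, thinning, the removal of high doublet scores and other clusterings. Leaving out the macrophage with the most Tgfbi UMIs was added after seeing the data. 2 genes of the glial marker list are not reported here.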

Additional observations from a re-analysis of the deposited data

How the results depend on the processing

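Over 7 settings of the cells and clusters, fibroblasts stayed highest for Tgfb1, Tgfb2, Tgfb3, Tgfbi and Smad7 and glia for Tgfbr3 and Pmepa1, while macrophages and fibroblasts traded places for Tgfbr1 (macrophages highest in 4 of 7) and Tgfbr2 (fibroblasts highest in 6 of 7). Among glial clusters the highest and lowest cluster was the same in all 7 settings for Pmepa1, Tgfbi and Tgfbr3. Many of the 81 log2 differences from the other groups moved by over 1 SD of the 2 libraries, apart from the sign changes below. After thinning to 2000 UMIs 47 did so, at the 5% mitochondrial limit 46, and as a mean over cells 29. Without the top 5% of doublet scores it was 24, with no genes kept out 11, at resolution 0.5 6, and with at least 1000 genes 3. Some log2 differences changed sign. That of Tgfbr3 in neurons went from -1.59 to 0.0028 after thinning to 2000 UMIs, and the others were then 0.20 for Smad7 in neurons, -0.13 for Tgfb2 in glia, -0.0917 for Tgfb1 in cluster 1 and -0.0668 for Tgfbr2 in cluster 3. With a mitochondrial limit of 5%, which leaves 1335 of 9442 glia, they were -0.50 for Smad7 and -0.22 for Tgfbr2 in cluster 3, and -0.25 for Tgfbr1 and -0.0158 for Tgfbr2 in cluster 1. Tgfb1 in cluster 1 was -0.0328 at resolution 0.5 and -0.0495 as a mean over cells. The cause was not tested.

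Counts of called pathway genes moved by over 1.5 times as follows. Thinning, which leaves 55 (classes) and 50 (clusters) genes to test, gave 4 lower in fibroblasts, 7 lower in glia, 4 higher in macrophages, 7 higher and 21 lower in neurons, 4 lower in cluster 0, 8 lower in cluster 1, 11 higher in cluster 2, and 4 higher and 8 lower in cluster 3, where 5.73% to 30.3% of all genes were higher and 4.36% to 18.5% lower in the classes and 9.31% to 22.1% and 7.68% to 14.5% in the clusters. The 5% limit gave 18 higher and 2 lower in cluster 0, 13 and 7 in cluster 1, 7 and 8 in cluster 2, 3 and 9 in cluster 3, and 5 and 10 in cluster 4, of 49 tested, where 5.18% to 11.2% of all genes were higher and 3.98% to 7.44% lower. DESeq2 gave 11 lower in macrophages, 9 lower in cluster 1, 10 higher in cluster 2 and 4 higher in cluster 3. The shares of all genes that it called in these directions were 5.85%, 11.1%, 12.4% and 8.76%. It moved the median log2 fold of all genes from 0.11 to -0.01 in neurons. Without the top 5% of doublet scores 14 of 74 were lower in glia, against 16.9% of all genes. No count moved as far under 5 other settings (no filter, at least 1000 genes, resolution 0.5, no genes kept out, no block).

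The libraries pair the sums, since each library gives 1 sum to every class, so the block was kept. Without the replicate block, the pairing by library, fibroblasts had 43 genes higher and 7 lower, against 23.7% and 16.2% of all genes. Glia had 29 and 22, against 31.3% and 23.0%. Neurons had 18 and 40, against 37.4% and 29.8%, and macrophages had 12 and 16, against 11.2% and 7.89%. With 1 library left out no residual degrees of freedom remain, so no count is given, and a level from 1 library lies within 1 SD of the mean by construction with n = 2.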
